A study of Mus musculus with 21 samples.

Results

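The trunk notochord was profiled on embryonic days 8.5 (E8.5) and 9.5 (E9.5), and the genes described here are those whose transcript level differed 3-fold or more between these libraries. Levels were in FPKM, which scales the fragments of a gene by the length of its transcript and by the depth of the library, and a gene was compared when it reached 5 FPKM in at least 1 of the trunk libraries. For each such gene the log2 ratio of FPKM + 1 at E9.5 over FPKM + 1 at E8.5 was taken, so that a fold of a low gene is understated on that scale. Of the 23983 genes in the table, 9379 were compared. Of these, 712 were 3-fold or more higher at E9.5 (7.59% of those compared) and 855 were 3-fold or more lower (9.12%), 1567 in all. Because the members were chosen from these very values, their differences are a description, and with 1 library at each stage there is no estimate of the spread between embryos and no test.

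The study searched for notochord enhancers and used transcriptomes of sorted embryonic cells to follow the genes expressed in the lineage. Of its 21 samples, 9 were RNA libraries and 6 of these came from embryos. Both trunk libraries came from embryos made from 1 genetically modified F1G4 mouse embryonic stem cell line, a C57BL/6N x SV129 hybrid, which carried 3 transgenes, each on a bacterial artificial chromosome (BAC): the reporter T::H2B-Venus (BAC), a second one for Noto written Noto::H2B-mCherry (BAC), and Foxa2::H2B-mTurquoise (BAC). The reporters are driven by the regulatory DNA of brachyury (T), Noto and Foxa2. Cells positive for all 3, and high for the Foxa2 reporter, were sorted by FACS from pooled trunk tissue. The E8.5 library came from Theiler stage 12 embryos and 73 cells, and the E9.5 library from Theiler stage 16 embryos and 90 cells. They differed in stage. By the paper's list the E9.5 trunk pool came from fewer embryos than the E8.5 pool, and these had more somites. Stage, the extent of the trunk sampled and the individual preparation cannot be told apart. Libraries of both stages were also made from notochord progenitors (NotoPs), the triple-positive cells of the caudal end. Others came from paraxial mesoderm progenitors (MPs), which were positive for the T reporter alone. The E8.5 NotoP library was sorted as Foxa2-positive and the E9.5 one as Foxa2-high. The E8.5 MP library came from far fewer cells than the E9.5 one, and the trunk pools spanned a wider range of somites. In these comparisons such differences cannot be told apart from stage. The cells of all these libraries carried the same 3 transgenes.

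The notochord is the rod of axial mesoderm beneath the neural tube that defines the chordates. It stiffens the embryo by means of a sheath of collagens, laminins and proteoglycans around vacuolated cells, and it patterns the floor plate, the ventral somites and the gut by secreting Sonic hedgehog and BMP antagonists. T, Foxa2 and Noto are the transcription factors that specify it, and its cells pass from an epithelial plate continuous with the endoderm to a separate rod as the embryo turns.

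The precision of these libraries was limited by their depth. The low FPKM values of each library, multiplied by transcript length, fell on whole multiples of a common step (within 0.1 of a whole number for 93.5% of low values of the E8.5 library and 93.2% of the E9.5 library), which gave the number of fragments behind each value. One fragment was worth 2.2 FPKM on a 1-kb transcript in the earlier library and 2.38 FPKM in the later, so that about 454658 and 420697 fragments stood behind the scaling. The paper lists larger numbers of de-duplicated mapped reads for both libraries, and the reason for the difference was not tested. Fragments were recovered for 7788 of the compared genes, among them 533 higher and 652 lower members. The median number in the richer library was 14 for the higher members and 10 for the lower members, against 28 for all compared genes. For each ratio an exact 95% interval was derived from the fragments (Clopper-Pearson, counting error only), and over all compared genes 32.6% of these intervals left out a ratio of 1. Among the members this held for 411 higher genes and 444 lower genes, counts that the choice of members itself raises. A value of 0 was also frequent: 191 of the higher members were listed at 0 at E8.5 (26.8%) and 323 of the lower members at 0 at E9.5 (37.8%). Of the genes with 5 FPKM or more in all other 5 embryonic libraries, 11 of 5424 were at 0 in the E8.5 trunk library and 46 of 5551 in the E9.5 trunk library, so that a 0 does not show that a gene was silent. No fold is given against a 0, and other ratios are given with the richer library over the other.

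**Figure D1:**
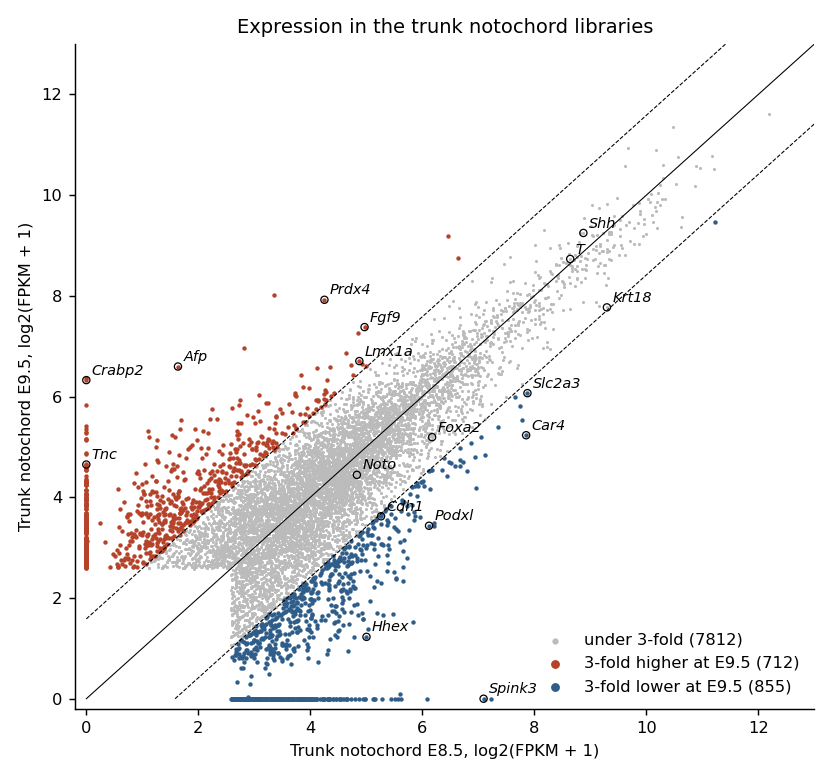
Level of each compared gene in the trunk notochord at E8.5 (x axis) and at E9.5 (y axis), both as log2(FPKM + 1). Red points are the 712 genes 3-fold or more higher at E9.5, blue points the 855 lower genes, the solid line marks equal levels and the dashed lines a 3-fold difference, and T and Shh lie near the solid line at a high level.

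The cells of both libraries carried the transcripts of the notochord. T was at 398 FPKM in the E8.5 library and 424 FPKM in the E9.5 library, and Shh, the ligand of the Hedgehog pathway, at 468 and 607. Noto was at 27.5 and 20.8 FPKM, and Foxa2 at 71.2 and 35.6 FPKM, a ratio of 2.00 (E8.5 over E9.5, counting interval 1.29 to 3.17). All 8 listed notochord markers reached 5 FPKM, their summed level was 1103 FPKM in the earlier and 1232 FPKM in the later library, and 1 of them, the BMP antagonist Chrd, was among the lower members (6.72 FPKM, 10 fragments, to a listed 0). The genes behind the 3 reporters were thus expressed at both stages, in keeping with the labelled cell type. The cells had been sorted for these reporters, with a high Foxa2 gate at both stages.

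Markers of other tissues differed widely in level, and they moved in both directions. Blood markers were nearly absent, with 11 of 12 listed at 0 in each library and a sum of 2.27 and 1.23 FPKM. None of the 8 endothelial markers (sum 5.82 and 1.67 FPKM, with Pecam1 and Cdh5 at 0) and none of the 6 surface ectoderm markers (sum 0 and 3.45 FPKM) reached 5 FPKM. The 8 floor plate markers, which share Shh and Foxa2 with the notochord, summed to 620 and 754 FPKM, with Nkx2-2 among the higher members and Nkx2-9 among the lower. Gut endoderm markers summed to 156 FPKM in the earlier and 69.5 FPKM in the later library; 6 of 8 were compared, all 6 were lower at E9.5, and Sox17 was at 0 in both. Neural tube markers summed to 104 and 71.9 FPKM (Sox3 and Nkx6-1 were lower members, Pax6 and Olig2 at 0), somite and sclerotome markers to 70.0 and 40.8 FPKM (Pax1 was a higher member, Tcf15 and Pax3 lower) and presomitic markers to 13.8 and 7.29 FPKM, with Dll3 lower and Tbx6 and Msgn1 at 0. Lateral and intermediate mesoderm markers summed to 17.9 and 55.8 FPKM (Pax2, Pax8 and Prrx1 higher, Gata4 lower, Hand1 at 0), neural crest markers to 18.3 and 41.3 FPKM (Sox10 higher, Foxd3 at 0), extraembryonic endoderm markers to 66.3 and 120 FPKM (Afp higher, Apob and Rbp4 lower, Amn at 0) and heart markers to 13.9 and 3.42 FPKM (Myl7 lower, Nkx2-5 and Tnnt2 at 0). The higher sum of the extraembryonic endoderm list came from Afp, and without it the list summed to 64.2 and 24.1 FPKM. Sox10, a neural crest factor, was at 2.43 and 26.3 FPKM (3 and 30 fragments, ratio 10.8, 3.36 to 55.3), and Prrx1, a mesenchymal homeobox gene, at 1.80 and 16.8 FPKM (4 and 35 fragments, ratio 9.34, 3.38 to 36.6). In these sorted pools fewer cells of a type and less RNA per cell cannot be told apart, and the part of other cell types in the differences below was not tested.

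**Figure D2:**
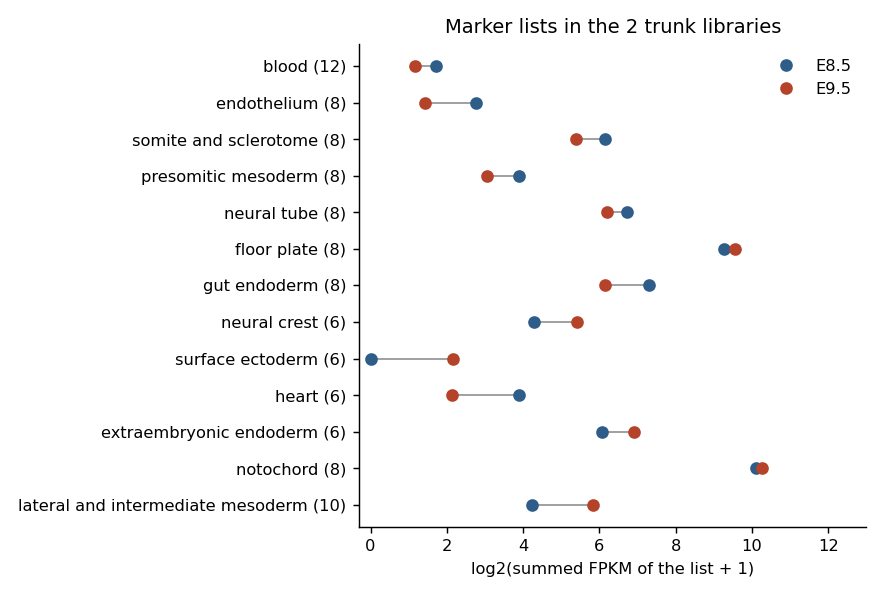
Summed FPKM of 13 lists of cell type markers in the trunk libraries at E8.5 (blue) and E9.5 (red), as log2(sum + 1), with the number of genes of each list in parentheses. The notochord list, with sums of 1103 and 1232 FPKM, stands highest at both stages, gut endoderm is lower at E9.5 (156 and 69.5 FPKM), neural crest and lateral and intermediate mesoderm are higher, and extraembryonic endoderm is higher with Afp and lower without it (64.2 and 24.1 FPKM).

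The members were mostly genes of modest level. Higher members had a median of 1.61 FPKM in the E8.5 library and 13.4 FPKM in the E9.5 library, and lower members medians of 12.1 and 1.26 FPKM. Only 142 higher and 153 lower members had 5 FPKM or more in both libraries, and 51 and 53 reached 50 FPKM in the richer one. At the edge of the choice, the zinc finger homeobox gene Zfhx4 was just inside with 11.9 and 37.7 FPKM and Zfp618 with 1.53 and 6.63, while Mbd1 (8.23 and 26.7 FPKM) and Ppp1r12b (2.12 and 8.35 FPKM) were just outside. In the other direction Tle4, a Groucho corepressor (39.6 and 12.5 FPKM), and Tmcc3 (7.16 and 1.72 FPKM) were just inside, and Mtfr1 (27.1 and 8.36 FPKM) and Rnf215 (5.68 and 1.23 FPKM) just outside. In FPKM alone Mbd1 and Mtfr1 each differed 3.24-fold, Ppp1r12b 3.94-fold and Rnf215 4.63-fold. All were left out only by the added 1 FPKM.

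Among the well counted higher members, Fgf9, a secreted growth factor, went from 30.3 to 165 FPKM (57 and 288 fragments, ratio 5.46, 4.10 to 7.39), against 6.15 and 6.22 FPKM in NotoPs. Lmx1a, a LIM homeodomain factor and roof plate regulator, was at 28.3 and 103 FPKM (43 and 145 fragments, ratio 3.64, 2.58 to 5.25), with 45.2 and 42.8 FPKM in NotoPs and 0 in both MP libraries. For both genes the E9.5 trunk value was the highest of the 6 embryonic libraries.

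Several higher members were listed at 0 at E8.5. Crabp2, which carries retinoic acid in the cytoplasm, showed the largest difference among the named higher genes, from 0 to 79.2 FPKM (30 fragments). The extracellular matrix glycoprotein tenascin C (Tnc) went from 0 to 24.1 FPKM and 72 fragments, and St6galnac5, a sialyltransferase of gangliosides, from 0 to 34.5 FPKM and 41 fragments. All 3 were well counted at E9.5. Itga9, an integrin subunit that binds tenascin, went from 0 to 11.5 FPKM (34 fragments), Mcam, a cell adhesion molecule, from 0 to 22.2 FPKM (27 fragments), and Igfbp7, a secreted binding protein, from 0 to 34.0 FPKM (16 fragments). The remaining named genes with the largest differences were Tsr3, Wfdc10, Tex264, Coprs, Gsto2, Med11, Apoo and Atp6v0c-ps2, all listed at 0 at E8.5 and between 27.9 and 55.8 FPKM at E9.5, and Afp (2.11 and 95.7 FPKM, 2 and 84 fragments, ratio 45.4, 12.2 to 381). Afp, alpha-fetoprotein, is made by visceral endoderm and liver, and was at 0 in both NotoP libraries and at 62.2 FPKM in the E8.5 MP library. Prdx4, a peroxiredoxin of the endoplasmic reticulum, was at 18 and 241 FPKM (8 and 100 fragments, ratio 13.4, 6.60 to 32.2), but at 137 and 76.6 FPKM in NotoPs, where E8.5 was the higher stage. Histone genes Hist1h4i (87.3 and 578 FPKM) and Hist1h2ag were also among the most abundant higher members, but their near-identical copies could share fragments and their values are uncertain.

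Among the lower members with the largest differences, Spink3, a secreted trypsin inhibitor of gut epithelia, went from 136 FPKM (26 fragments) to a listed 0 and was at 0 in the 4 NotoP and MP libraries. The DNA glycosylase Tdg went from 44.6 FPKM (71 fragments) to 0 fragments, and the replication factor Gins1 from 34.4 FPKM (17 fragments) to 0. Tdg, Rpl34-ps1 and Ndufs5 have near-identical copies in the genome with which fragments could be exchanged, and Ndufs5 was also near 0 in both NotoP libraries, so their values are uncertain. S100a10, Nme3, Prelid2, Rab26os, Wdr83os, Phlda2 and Romo1 completed the set, each listed at 0 at E9.5 and between 24.3 and 33.8 FPKM at E8.5, from 4 to 10 fragments. With so few fragments the size of these differences is poorly defined.

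The well counted lower members given here, Podxl, Car4, Emb and Dpp4 among them, were picked after their values were seen, and several encode membrane or surface proteins. Others do not, such as the centrosomal protein Cep131 (26.4 and 1.33 FPKM, 43 and 2 fragments, ratio 19.9, 5.18 to 170) and the signal recognition particle gene Srp54c (22.2 FPKM, 43 fragments, to a listed 0), which has near-identical copies and so an uncertain value. Podxl, podocalyxin, a sialomucin of apical epithelial surfaces, was at 68.5 FPKM in the earlier library and 9.81 FPKM in the later (166 and 22 fragments, ratio 6.98 of E8.5 over E9.5, 4.46 to 11.4). Car4, a membrane-bound carbonic anhydrase, was at 230 and 36.6 FPKM (136 and 20 fragments, ratio 6.29, 3.92 to 10.6), and Emb, embigin, a partner of monocarboxylate transporters, at 219 and 45.3 FPKM (261 and 50 fragments, ratio 4.83, 3.56 to 6.68). In all 3 the E8.5 library was clearly the richer, and NotoPs also had less at E9.5 (19.5 and 12.8, 15.2 and 5.45, and 89.9 and 34.1 FPKM). Dpp4, a cell-surface peptidase, was at 37.4 and 3.90 FPKM (62 and 6 fragments, ratio 9.59, 4.15 to 27.1), and the collagen Col12a1 at 6.76 FPKM (36 fragments) and 0. Piezo2, a mechanically gated channel, was at 6.56 and 0.22 FPKM (32 and 1 fragments, ratio 29.6, 4.95 to 1206) and Stxbp5l at 11.6 and 0.60 FPKM (63 and 3 fragments, ratio 19.2, 6.35 to 96.7). The small RNA gene Rn4.5s was the most abundant member of all (2389 and 710 FPKM), with uncertain values because it is a repeated gene.

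**Figure D3:**
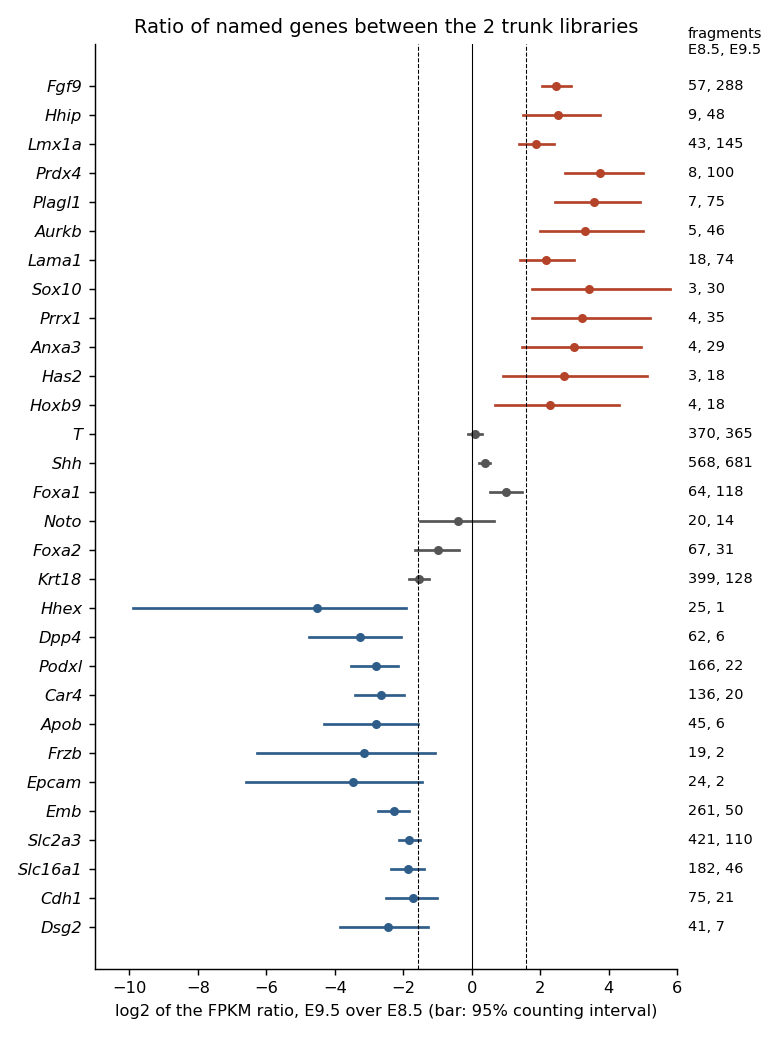
Ratio of FPKM at E9.5 over E8.5, as log2, for 30 named genes (points), with bars for the 95% counting interval and the fragments behind each value at the right; red marks 12 higher members, blue 12 lower members and gray 6 other genes of the notochord or the epithelium. Fgf9 (57 and 288 fragments) has a short bar clear of the dashed 3-fold line, whereas Hhex, with 25 and 1 fragments, has a long one.

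Most transcription factors of the notochord differed by less than 3-fold. Of 15 listed notochord and node factors, 9 were compared, 1 was 3-fold higher (Lmx1a) and none 3-fold lower, with a median log2 difference of 0.31 beside -0.00084 over all compared genes. The member counts of this list and of those below stand beside 7.59% higher and 9.12% lower over all compared genes. Counting intervals lay above a ratio of 1 for 3 of the 9 and below it for 1. Foxa1, the paralogue of Foxa2, was at 44.2 and 88.0 FPKM (64 and 118 fragments, ratio 1.99, 1.46 to 2.75) and was higher at E9.5 while Foxa2 was lower. Sox9, Sox5 and Sox6, the chondrogenic Sox factors of the sheath programme, were at 74.8 and 92.9, 10.6 and 13.7, and 21.6 and 39.8 FPKM. Sox9 and Sox5 lay within counting error of equal levels. Among factors outside this list, Plagl1, an imprinted zinc finger gene, was at 2.93 and 34.3 FPKM (7 and 75 fragments, ratio 11.7, 5.35 to 29.8) and also differed in NotoPs, at 7.53 and 37.7 FPKM. Of the caudal and neuromesodermal progenitor list, 4 of 13 genes were compared and 1, Cdx2, was lower (9.23 and 2.22 FPKM), with a median of -0.73. Of the pluripotency list 2 of 13 were compared, none was a member, and the median was -0.60.

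Hox genes give the position of cells along the body axis. Of the 15 genes of paralog groups 1 to 5, 11 were compared, 2 were 3-fold higher (Hoxc4 and Hoxd1) and 1 lower (Hoxb1, 7.41 and 1.14 FPKM), with a median log2 difference of 1.08. Hoxa5 was at 7.03 and 21.5 FPKM and Hoxb2 at 6.75 and 20.4 FPKM, both higher at E9.5 but under the limit. Of groups 6 to 9, 8 of 12 genes were listed at 0 at E8.5 and 2 of 12 at E9.5; the 2 that were compared, Hoxb8 (1.66 and 11.7 FPKM, 2 and 13 fragments, ratio 7.02, 1.59 to 64.1) and Hoxb9 (3.26 and 15.9 FPKM, 4 and 18 fragments, ratio 4.86, 1.60 to 19.8), were both higher at E9.5. In NotoPs, Hoxb8 was at 20.0 and 10.5 FPKM and Hoxb9 at 18.2 and 21.7 FPKM, so the trunk library at E8.5 was the low one of the 4. No gene of groups 10 to 13 reached 5 FPKM in either trunk library. Because the E9.5 trunk came from embryos with more somites, axial position and stage cannot be told apart in these values.

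The Hedgehog pathway works by relief: the ligand binds the receptor Ptch1, which otherwise holds Smo inactive, and Ptch1, Gli1 and Hhip are themselves targets. Of 19 listed genes, 14 were compared, 2 were 3-fold higher and none lower, with a median log2 difference of 0.36. The higher genes were Hhip, a membrane protein that sequesters the ligand (2.18 and 12.6 FPKM, 9 and 48 fragments, ratio 5.76, 2.80 to 13.4), and Scube3, of a family that releases the ligand from cells (4.43 and 31.9 FPKM). Scube3 also differed in NotoPs (3.16 and 11.0 FPKM), whereas Hhip was at 0.42 FPKM and 0 there. Ptch1 was at 189 and 136 FPKM (ratio 1.39 of E8.5 over E9.5, 1.23 to 1.58) and Gli1 at 19.2 and 24.7 FPKM. Receptor and ligand were thus abundant at both stages.

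BMP antagonists are the other classical product of the notochord. Of 30 listed BMP and TGF-beta genes, 15 were compared, 1 was 3-fold higher (Id4, 0 and 7.16 FPKM) and 3 lower, with a median of -0.18. Lower genes were the antagonists Chrd and Fst (16.1 FPKM to 0) and the BMP target Id1 (73.0 and 10.2 FPKM, 31 and 4 fragments, ratio 7.17, 2.54 to 28.0). Nog, the third antagonist, was at 77.8 and 48.2 FPKM, and the targets Id2 (55.3 and 59.8 FPKM) and Id3 (90.0 and 94.8 FPKM) were nearly level, so that Id1 and Id4 stood apart from the rest of their family and from each other. In NotoPs Chrd was at 37.1 and 10.6 FPKM and Id1 at 42.4 and 60.7 FPKM. Chrd was thus lower at E9.5 in both, and Id1 in the trunk but not in NotoPs.

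Nodal signalling and motile cilia in the node set the left-right axis. Of 13 listed genes 12 were in the table and 7 were compared, none was higher and 3 were lower, with a median log2 difference of -1.51. Cfc1, the Nodal co-receptor cryptic, was at 23.3 and 2.29 FPKM (11 and 1 fragments, ratio 10.2, 1.48 to 438), and in NotoPs at 20.0 and 1.24 FPKM. Dnah11, the left-right dynein, was at 6.88 and 1.18 FPKM (44 and 7 fragments, ratio 5.82, 2.60 to 15.3), and Cer1, a secreted Nodal antagonist, at 7.58 FPKM (6 fragments) and 0. Bicc1, an RNA-binding protein of the node, was at 39.0 and 13.0 FPKM and in NotoPs at 159 and 54.2 FPKM. By contrast the ligand gene Gdf1 (7.84 and 23.9 FPKM) and the receptor Acvr2b (25.9 and 47.5 FPKM) were higher at E9.5 without reaching the limit. With a minimum of 10 FPKM the median of this list was 0.46, so its sign depends on the low genes. Of 54 listed cilium genes 42 were in the table and 16 were compared, none was higher and 4 were lower (Cfap44, Tekt1, Fam183b and Dynlrb2, between 5.35 and 12.8 FPKM at E8.5 and all at 0 at E9.5), while the median was 0.16, and -0.21 with a minimum of 10 FPKM, so its sign too depends on the low genes.

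Most Wnt genes that were members were lower at E9.5, while the list as a whole differed little. Of 41 listed genes 23 were compared, 1 was 3-fold higher and 5 were 3-fold lower. The median was -0.17, and -0.02 with a minimum of 10 FPKM. Of the compared genes 14 were lower and 9 higher, and counting intervals lay below a ratio of 1 for 4 and above it for 2. The higher gene was the antagonist Dkk1 (0.98 and 8.5 FPKM, 1 and 8 fragments, ratio 8.65, 1.16 to 384). The lower genes were the receptors Fzd10 (5.15 FPKM to 0) and Ror1 (8.07 and 1.34 FPKM), the secreted antagonists Sfrp5 (5.79 FPKM to 0) and Frzb (14.3 and 1.63 FPKM, 19 and 2 fragments, ratio 8.79, 2.12 to 77.8), and the nuclear effector Lef1 (15.9 and 3.90 FPKM). Lef1 was at 92.2 and 55.6 FPKM in NotoPs and at 188 and 194 FPKM in MPs, so the trunk had less of it than the caudal cells at both stages. Of 21 listed planar cell polarity genes 17 were compared and 1, Dact1, a Dishevelled-binding protein, was lower (16.5 and 0.65 FPKM), with a median of 0.27; Vangl2 was at 24.3 and 51.5 FPKM.

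Among Fgf genes the members were higher at E9.5, and among Notch genes they went both ways. Of 21 Fgf genes 10 were compared and 2 were higher, Fgf9 and the feedback inhibitor Spry1 (1.77 and 11.5 FPKM, 2 and 12 fragments, ratio 6.48, 1.44 to 59.7), with a median of -0.26. The receptors Fgfr1 (24.5 and 21.8 FPKM) and Fgfr2 (17.6 and 13.6 FPKM) lay within counting error of equal levels. Spry1 was also higher at E9.5 in NotoPs (3.79 and 12.4 FPKM). Of 19 Notch genes 8 were compared: the targets Hey1 (4.99 and 20.5 FPKM) and Nrarp (1.71 and 8.31 FPKM) were higher, and the target Hes1 (24.3 and 3.28 FPKM, 16 and 2 fragments, ratio 7.40, 1.74 to 66.4) and the ligand Dll3 (5.08 FPKM to 0) were lower, with a median of 0.28. The Notch targets among the members thus differed in both directions between these libraries, and with 1 library at each stage this is a description only.

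Retinoic acid genes divided. Of 15 listed genes 11 were compared, 2 were higher and 4 lower, with a median log2 difference of -1.06. The higher genes were Crabp2 and the receptor Rara (6.77 and 30.2 FPKM). The lower genes included the retinaldehyde reductase Dhrs3 (22.8 and 1.76 FPKM), the degrading enzyme Cyp26a1 (6.17 FPKM to 0) and the receptor Rarb (14.5 and 3.54 FPKM). Crabp2 was also higher at E9.5 in NotoPs (3.14 and 10.7 FPKM) and, by more, in MPs (8.65 and 97.0 FPKM). The insulin-like growth factor list had 12 of 15 genes compared, 1 higher (Igfbp7) and 1 lower (Igfbp3, 9.01 and 0.97 FPKM), with a median of 0.43; Igf2, the abundant ligand, was at 195 and 315 FPKM (ratio 1.61, 1.40 to 1.86).

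The collagens of the sheath were expressed at both stages and most were higher at E9.5 by less than 3-fold. Of 20 listed fibrillar and sheath collagens 12 were compared, none was 3-fold higher and 1, Col12a1, was lower. Their median log2 difference was 0.61, 8 of the 12 were higher at E9.5, and 5 had a counting interval above a ratio of 1 and 3 below it. Col2a1, the main collagen of the sheath, was at 188 and 308 FPKM (ratio 1.64, 1.45 to 1.85), and its partners Col9a1 at 37.6 and 101 FPKM (2.67, 1.93 to 3.75) and Col11a1 at 32.0 and 74.5 FPKM (2.32, 1.85 to 2.94). These genes were far lower in NotoPs, where Col2a1 was at 20.0 and 24.2 FPKM. Of the 23 genes of collagen processing 22 were in the table, 15 were compared and 1 was higher (Loxl3, a lysyl oxidase, 1.09 and 6.46 FPKM), with a median of -0.24; Serpinh1, the collagen chaperone, was at 209 and 150 FPKM.

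Basement membrane genes differed in both directions. Of 31 listed genes 26 were compared, 2 were 3-fold higher (the laminin chains Lama1, 4.16 and 18.5 FPKM, and Lama4, 2.91 and 12.2 FPKM) and none lower, with a median of 0.25. Counting intervals lay above a ratio of 1 for 11 of them and below it for 7. Lama1 rested on 18 and 74 fragments (ratio 4.44, 2.63 to 7.90) and was also higher at E9.5 in NotoPs (19.3 and 35.9 FPKM). Perlecan, Hspg2, was at 18.2 and 38.9 FPKM (ratio 2.14, 1.71 to 2.70) and Itgb1, the common integrin chain, at 91.3 and 148 FPKM, while the type IV collagens Col4a1 (50.9 and 29.8 FPKM) and Col4a2 (37.7 and 23.3 FPKM) were lower. Of 31 sheath proteoglycans and related genes 16 were compared and 3 were higher, Tnc, the hyaluronan synthase Has2 (1.55 and 10.1 FPKM, 3 and 18 fragments, ratio 6.48, 1.89 to 34.4) and Emilin1 (1.27 and 6.18 FPKM), with none lower and a median of 0.23. The large proteoglycan Vcan was nearly level (106 and 101 FPKM). Of the list for caveolae and the lysosome-related vacuole 10 of 20 genes were compared and none was a member (median 0.16), with Rab38 at 18.1 and 46.7 FPKM.

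Keratins and epithelial junction genes were lower at E9.5 as a group. Of 28 listed genes 17 were compared, none was 3-fold higher and 5 were 3-fold lower, with a median log2 difference of -1.27. Lower levels were seen in 14 of the 17, and of the counting intervals 9 left out a ratio of 1, all of them on the lower side. E-cadherin, Cdh1, was at 37.4 and 11.3 FPKM (75 and 21 fragments, ratio 3.30 of E8.5 over E9.5, 2.01 to 5.65). The epithelial adhesion molecule Epcam was at 25.6 and 2.31 FPKM (24 and 2 fragments, ratio 11.1, 2.76 to 96.9), and the desmosomal cadherin Dsg2 at 15.7 and 2.90 FPKM (41 and 7 fragments, ratio 5.42, 2.41 to 14.3). Esrp1, the epithelial splicing regulator (11.6 and 2.40 FPKM), and Cldn7 (6.71 FPKM, 3 fragments, to 0) were the other members. Among non-members the simple-epithelial keratins were abundant and lower: Krt18 was at 627 and 217 FPKM (ratio 2.88, 2.36 to 3.55), Krt8 at 641 and 423 FPKM and Krt19 at 285 and 125 FPKM. The cadherin Cdh2, N-cadherin, was level (130 and 131 FPKM). The same list had a median of -0.94 in NotoPs, where Cdh1 was at 29.5 and 3.36 FPKM and Krt18 at 304 and 86.5 FPKM, but Krt19 at 96.1 and 160 FPKM. Cdh1 and Epcam are also gut endoderm markers, and the summed level of those markers was lower at E9.5, as given above; its part in these values was not tested.

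Mesenchymal genes did not mirror the epithelial ones. Of 15 listed genes 12 were compared, 6 were higher and 6 lower at E9.5, with a median of -0.01, and 1 was 3-fold higher, Twist1 (4.05 and 21.9 FPKM, 3 and 15 fragments, ratio 5.40, 1.53 to 29.1). Vim was at 395 and 389 FPKM and Sparc at 91.6 and 91.8 FPKM, level in both libraries. Of 20 listed Yap and Tead genes 15 were compared, none was higher and 2 were lower, Tead4 (13.4 FPKM to 0) and Cyr61 (59.6 and 17.6 FPKM, 55 and 15 fragments, ratio 3.39, 1.89 to 6.47), with a median of 0.03. Dissociation and immediate early genes had 9 of 20 compared: Fos, Fosb and Egr1 (3.58 and 19.3 FPKM) were higher and Atf3 lower, with a median of 0.84.

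**Figure D4:**
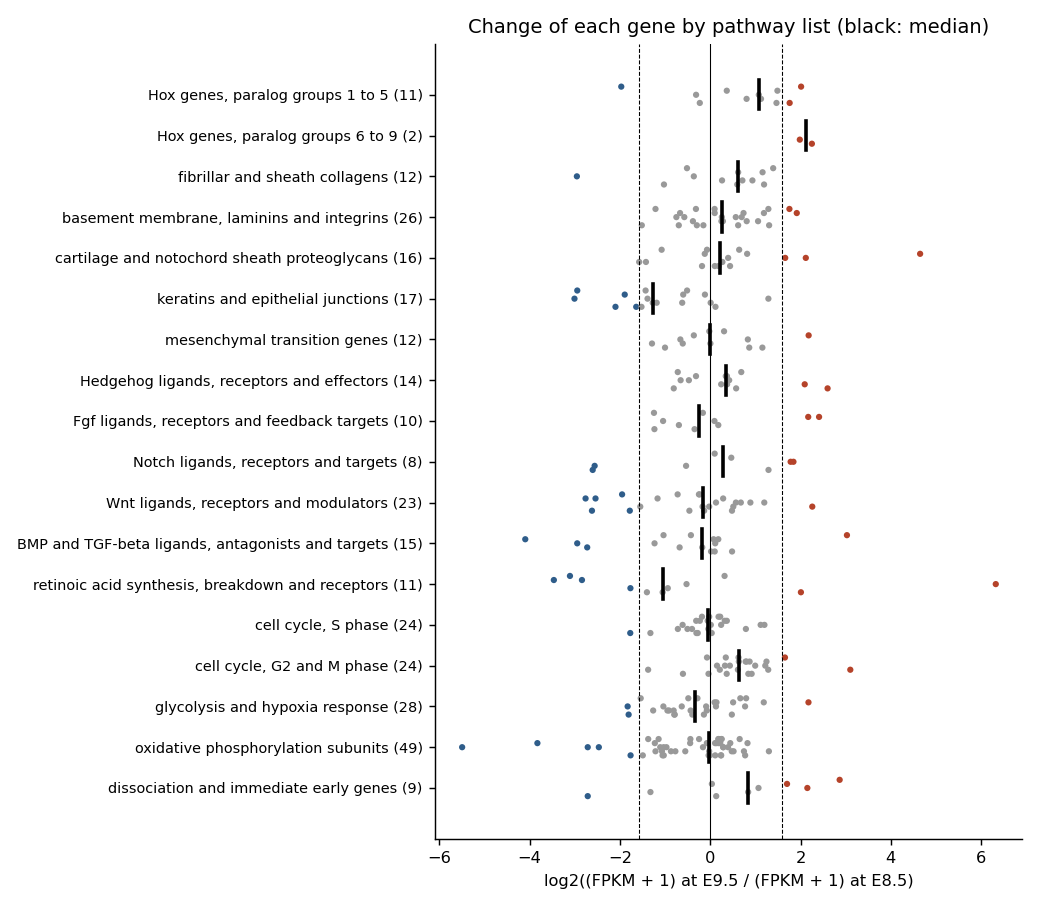
Log2 difference between E9.5 and E8.5 for each compared gene of 18 lists (points, with the number of genes in parentheses), the median of each list as a black bar and a 3-fold difference as dashed lines; red points are 3-fold higher and blue points 3-fold lower. Keratins and epithelial junctions lie mostly below 0 (median -1.27), and G2 and M phase genes (0.63) and collagens (0.61) mostly above it.

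Of 46 listed genes of axon and cell guidance 35 were compared, 3 were higher and 2 lower, with a median log2 difference of 0.05. The higher genes were the repellent Sema3a (0 and 5.92 FPKM, 16 fragments), the semaphorin receptor Plxna4 (0.87 and 5.10 FPKM, 5 and 27 fragments, ratio 5.84, 2.22 to 19.4) and the ephrin receptor Ephb1 (6.29 and 48.8 FPKM). The lower genes were the netrin receptor Unc5b (8.62 and 0.41 FPKM, 23 and 1 fragments, ratio 21.3, 3.46 to 877) and Epha2 (7.27 and 1.21 FPKM). Slit2, the midline repellent and the best counted gene of the list, was at 175 and 398 FPKM (791 and 1665 fragments, ratio 2.28, 2.09 to 2.48), and Ntn1, netrin, was at 39.1 and 23.6 FPKM. Slit2 and Ntn1 thus differed in opposite directions.

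Cell cycle genes differed by phase. Of the 24 genes of G2 and M phase all were compared, 20 were higher at E9.5, 2 of them 3-fold, and none was 3-fold lower. Their median log2 difference was 0.63, with 13 counting intervals above a ratio of 1 and 1 below it. Aurkb, a kinase of the chromosomal passenger complex, was at 5.62 and 55.9 FPKM (5 and 46 fragments, ratio 9.94, 3.97 to 32.1), and the spindle checkpoint kinase Bub1b at 16.2 and 53.1 FPKM (27 and 82 fragments, ratio 3.28, 2.1 to 5.28). Mki67 was at 115 and 200 FPKM and Top2a at 157 and 241 FPKM, while Cdk1 (38.5 and 24.9 FPKM) was lower. The 24 S phase genes had a median of -0.05, with 1 member, Ccne1, which was lower (31.5 and 8.51 FPKM, 28 and 7 fragments, ratio 3.70, 1.58 to 10.0), and Pcna, the replication clamp, was at 309 and 123 FPKM (ratio 2.52, 1.89 to 3.40). In NotoPs the medians of these lists were -0.01 for G2 and M phase and 0.32 for S phase. Of 21 cell cycle inhibitors and D cyclins 13 were compared, with Cdkn1a higher (2.30 and 12.4 FPKM), Gadd45g (12.2 and 2.2 FPKM) and Btg1 (34.3 and 9.49 FPKM) lower and a median of -0.04; Cdkn1c, the most abundant inhibitor, was at 256 and 185 FPKM.

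Transporters of glucose and lactate were among the lower genes of metabolism. Of 33 listed glycolysis and hypoxia genes 28 were compared, 1 was 3-fold higher and 2 lower, with a median of -0.34, and 13 counting intervals lay below a ratio of 1 against 2 above it. The lower members were the glucose transporter Slc2a3 (234 and 66.0 FPKM, 421 and 110 fragments, ratio 3.54, 2.86 to 4.41) and the lactate transporter Slc16a1 (90.4 and 24.7 FPKM, 182 and 46 fragments, ratio 3.66, 2.64 to 5.18). The other main glucose transporter, Slc2a1, was at 220 and 74.9 FPKM (ratio 2.94, 2.28 to 3.82), whereas the lactate exporter Slc16a3 was nearly level (43.4 and 47.9 FPKM). In NotoPs Slc2a3 was level (245 and 249 FPKM) and Slc2a1 lower at E9.5 (264 and 140 FPKM). The enzymes moved less: Pgk1 was at 607 and 349 FPKM, Ldha at 839 and 541 FPKM and Gapdh at 493 and 463 FPKM, while the other lactate dehydrogenase, Ldhb, was the higher member (10.2 and 49.8 FPKM), as it was in NotoPs (18.3 and 43.4 FPKM). Of the 49 subunits of oxidative phosphorylation all were compared, none was 3-fold higher and 5 were 3-fold lower (Ndufa1, Ndufs5, Sdhb, Uqcrq and Cyc1). Their median was -0.04, and counting intervals lay below a ratio of 1 for 11 of them and above it for 1. In this list and the glycolysis list the share of 3-fold lower genes was near the 9.12% of all compared genes. Sdhb was at 49.2 and 6.65 FPKM (24 and 3 fragments, ratio 7.40, 2.25 to 38.4).

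The same stages were then compared in libraries that the choice of genes did not use. In NotoPs 2.93% of the compared genes were 3-fold or more higher at E9.5 and 2.09% were 3-fold or more lower. Of the 712 genes higher in the trunk, 52 were also 3-fold higher in NotoPs (7.30%) and 32 were 3-fold lower (4.49%). Of the 855 genes lower in the trunk, 45 were 3-fold lower in NotoPs (5.26%) and 45 were 3-fold higher (5.26%). Shares above those of all compared genes were thus seen on both sides. For members with counting intervals that left out 1 these shares were smaller. Of such higher members 5.35% were 3-fold higher in NotoPs and 3.41% were 3-fold lower. Of such lower members 3.15% were 3-fold lower and 3.83% were 3-fold higher. At 2-fold, 15.9% of the higher members were higher in NotoPs (8.18% of all compared genes) and 12.6% of the lower members were lower (6.89%). Counted by direction alone, 361 of 712 higher members (50.7%, 95% Wilson interval 47.0 to 54.4) were higher in NotoPs, beside 48.3% of all compared genes, and 422 of 855 lower members (49.4%, 46.0 to 52.7) were lower, beside 50.4%. The median log2 differences in NotoPs were 0.01 and 0. The genes with counting intervals that left out 1 gave 51.6% in each direction. The intervals of both shares over all members held the share of all compared genes. These shares count genes with equal NotoP values as not agreeing, which were 42 higher and 54 lower members, beside 121 of all compared genes. In the opposite direction, 43.4% of the higher members (39.8 to 47.1) were lower in NotoPs, beside 50.4%. Of the lower members 44.3% (41.0 to 47.7) were higher there, beside 48.3%. Both of these intervals lay below the share of all compared genes. Without the genes at 0 in a trunk library, 55.6% of the lower members (51.4 to 59.8) were lower in NotoPs, beside 51.2% of all compared genes above 0 in both trunk libraries, just under the lower end of the interval.

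**Figure D5:**
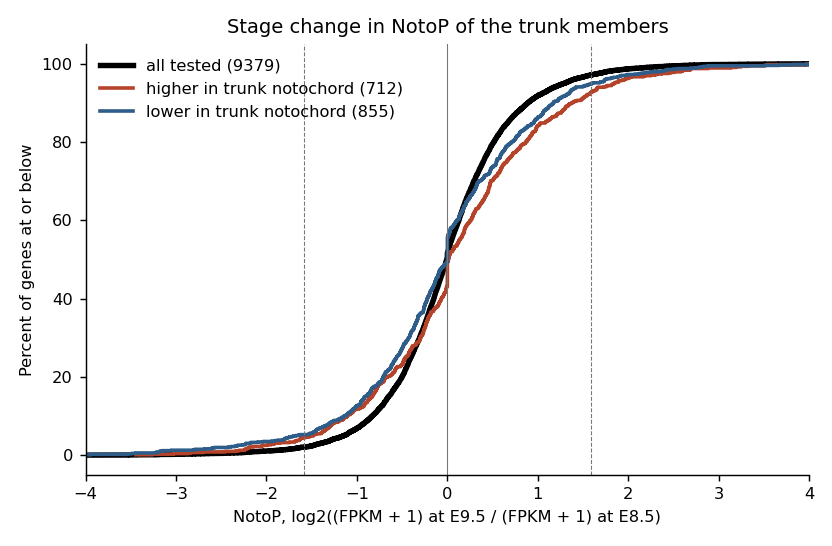
Cumulative percent of genes at or below each log2 difference between E9.5 and E8.5 in NotoPs, for all 9379 compared genes (black), the 712 genes higher in the trunk (red) and the 855 lower genes (blue); dashed lines mark a 3-fold difference. The 3 curves cross 0 close together, with 50.7% of the red genes and 48.3% of all genes higher at E9.5 in NotoPs, and the red and blue curves are wider than the black one.

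A smaller set of named genes differed 3-fold in the same direction in both tissues, 47 higher and 39 lower. With clone, predicted and small RNA names included these counts were 52 and 45. In opposite directions, 32 of the higher and 45 of the lower trunk members differed 3-fold in NotoPs, so agreement was no commoner among the lower members. Among the higher, Anxa3, an annexin, was at 5.51 and 43.2 FPKM in the trunk (4 and 29 fragments, ratio 7.84, 2.75 to 30.7) and at 2.36 and 23.8 FPKM in NotoPs. Slc7a7, an amino acid transporter, was at 1.03 and 15.7 FPKM and at 0 and 8.48 FPKM, and the chemokine Cxcl12 at 2.08 and 23.7 FPKM and at 0 and 5.45 FPKM. All 3 were higher at E9.5 in both tissues, with Cxcl12 and Slc7a7 still under 10 FPKM in NotoPs. Slc10a3-ubl4, Nme4, Rprl3, Xrcc6bp1, Tctex1d2, Arhgdib and Rdm1 were the others with the largest shared difference, and the trunk intervals of Nme4, Rprl3, Xrcc6bp1, Tctex1d2 and Rdm1, which had 0 fragments at E8.5 and 1 to 4 at E9.5, held a ratio of 1. Among the lower, besides Cfc1, the imprinted gene Phlda2 was at 26.9 FPKM (9 fragments) and 0 in the trunk and at 39.7 and 6.99 FPKM in NotoPs, and Tmem205 at 12.8 FPKM and 0, and 12.1 and 0.89 FPKM. Tmsb15b2, Rpl30, Ccdc94, Mettl20, Ms4a4d, Ttc32 and Lrrc9 completed this group, of which Rpl30 has near-identical copies. The trunk intervals of Tmem205 (5 fragments and 0), Tmsb15b2 and Rpl30 (4 and 0 each) held a ratio of 1. Each of these genes had 1 library at each stage in each tissue.

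In MPs 10.4% of the compared genes were 3-fold higher at E9.5 and 4.9% were 3-fold lower. The E8.5 MP library was the shallowest of the 6, with about 385342 fragments behind its scaling and 87 genes at 0 that had 5 FPKM or more in all others, and the E9.5 MP library the deepest. Of the higher trunk members 405 were higher in MPs (56.9%, 53.2 to 60.5), beside 52.2% of all compared genes. Of these higher trunk members 140 were 3-fold higher in MPs (19.7%), against 55 that were 3-fold lower (7.72%). Of the lower trunk members 329 were lower in MPs (38.5%, 35.3 to 41.8), beside 45.6%, and 91 were 3-fold lower (10.6%) against 132 that were 3-fold higher (15.4%). At 2-fold the shares in the same direction were 28.9% of the higher members (19.2% of all compared genes) and 19.1% of the lower (12%). The interval for the higher members lay above the share of all compared genes and that for the lower members below it. Genes at 0 in both MP libraries count as not agreeing here. They were 72 of the higher and 70 of the lower members, beside 200 of all compared genes. The share of lower members that was higher in MPs, 53.3% (50.0 to 56.7), was near the 52.2% of all compared genes.

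Binding of T and Foxa2 was mapped by ChIP-seq in NotoPdiff cultures, cells differentiated in vitro from another embryonic stem cell line with doxycycline-inducible Foxa2, and not in the trunk. A peak of T or Foxa2 had its summit within 10 kb of an annotated start for 27.9% of the compared genes that could be placed (2606 of 9337). The share was 196 of 705 (27.8%, 24.6 to 31.2) for the higher members and 208 of 849 (24.5%, 21.7 to 27.5) for the lower members. A Foxa2 peak, with or without one of T, was found for 22.6% of the higher and 17.7% of the lower members beside 20.3%, and a T peak, with or without one of Foxa2, for 9.08% and 9.54% beside 11.4%. The interval of the higher members held the share of all compared genes, and that of the lower members lay just below it.

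The named members Cfc1, Chrd, Lef1 and Zfhx4 had summits of both factors within 200 bp of each other near their start. For these the 151 bases centred between the summits are shown as examples, and other members had such pairs too. Peaks of both factors within 10 kb of a start were found for 3.83% of the higher and 2.71% of the lower members, beside 3.81% of all compared genes. The binding was mapped in the cultures and the stage difference in the trunk. The coordinates are GRCm38/mm10, the plus strand is printed, and capitals mark the letters CACACCT, the core of a T half-site, and TGTTTAC or TGTTTGC, the forkhead motif bound by Foxa2, on either strand.
Cfc1: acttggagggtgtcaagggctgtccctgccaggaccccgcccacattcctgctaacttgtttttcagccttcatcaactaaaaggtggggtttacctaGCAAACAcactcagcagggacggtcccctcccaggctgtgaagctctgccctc
Chrd: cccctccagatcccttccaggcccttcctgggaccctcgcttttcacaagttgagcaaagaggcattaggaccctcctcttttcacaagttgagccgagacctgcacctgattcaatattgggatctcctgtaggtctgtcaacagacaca
Lef1: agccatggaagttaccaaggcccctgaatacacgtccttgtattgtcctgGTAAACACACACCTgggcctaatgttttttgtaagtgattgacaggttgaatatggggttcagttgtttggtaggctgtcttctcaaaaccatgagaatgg
Zfhx4: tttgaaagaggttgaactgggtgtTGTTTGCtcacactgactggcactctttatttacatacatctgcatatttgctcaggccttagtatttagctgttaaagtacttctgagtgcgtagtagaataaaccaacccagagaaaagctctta

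The Cfc1 window, chr1:34536917-34537067, lay downstream of the start, with summits at 1325 bp for T (10.7-fold enrichment) and 1364 bp for Foxa2 (10.3-fold), and held 1 forkhead motif on the minus strand. The Chrd window, chr16:20729933-20730083, lay upstream, with summits at 3166 bp (T, 5.28-fold) and 3072 bp (Foxa2, 11.8-fold), and held neither motif. The Lef1 window, chr3:131153824-131153974, lay upstream of a start, with summits at 2335 bp (T, 11.5-fold) and 2455 bp (Foxa2, 9.86-fold), and held 1 of each motif directly side by side. In the Zfhx4 window, chr3:5217919-5218069, the summits were 548 bp (T, 13.6-fold) and 571 bp (Foxa2, 15.1-fold) upstream, and 1 forkhead motif was present on the plus strand. Cfc1, Chrd and Lef1 were lower in the trunk at E9.5 and Zfhx4 was higher. Over all peaks, the T letters were in 6.43% of 6871 windows of this length at T summits and the forkhead letters in 22.6% of 22680 at Foxa2 summits, beside 3.14% and 5.08% of 51195 windows spaced along the genome; both occurred in 0.917%, 1.17% and 0.141% of T, Foxa2 and genome windows. A match is a description of the letters in the window only.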

How the data were processed

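The authors sorted reporter-positive cells from mouse embryos into lysis buffer and made RNA libraries with the Ovation SoLo kit. They trimmed the reads, mapped them to mm10 with TopHat2 2.1.1 and Bowtie 1.2.2 against RefSeq genes with the library strand set, removed duplicates by molecular identifiers and calculated FPKM with Cufflinks 2.2.1 without effective-length correction; the deposited FPKM table was used as it stands. T and Foxa2 peaks were called by the authors with MACS3 3.0.0b1 on 1 library each at a q-value cutoff, and the deposited columns give the fold enrichment as a ratio, -log10 p-values and q-values, and a score.

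Genes were compared from 5 FPKM in either trunk library with a pseudocount of 1 FPKM and a limit of 3-fold. Fragments were recovered from the steps of low FPKM values and RefSeq transcript lengths (tolerance 0.1 of a fragment, or 1% of larger counts); 23779 symbols matched RefSeq, 1242 of them by a synonym. The 95% intervals of ratios and shares cover counting error only. There is no replicate, so no test was made. The members, the 31 gene lists and the 13 marker lists were chosen with earlier results of these data known. Named genes were the 12 members with the largest difference in each direction, the 10 with the largest difference shared with NotoPs, those at the limit, and members of the lists with other list genes for contrast; clone, predicted and small RNA names (156 members) were left out, and a few genes are not reported here. The best counted genes and others outside this rule, such as Car4, Emb, Rn4.5s and the histones, were chosen after their values were seen. Alternatives were another pseudocount, minimum, limit, scaling, peak window and q-value. All per-sample columns were mapped (0 unused). The ratio and interval code was tested on simulated data. Computation was in Python (version 3.11.15) with scipy 1.17.1, numpy 2.4.6 and pandas 2.3.3; matplotlib 3.10.9 drew the plots.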

Additional observations from a re-analysis of the deposited data

Results flagged for a closer look

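For 9 named genes the trunk and NotoP libraries differed between the stages by 3-fold or more in opposite directions, with 1 library at each stage in each tissue, and the difference between the tissues was not tested. In the trunk, Unc5b was at 8.62 FPKM in the E8.5 library and 0.41 FPKM in the E9.5 library, and in NotoPs at 2.57 and 23.5 FPKM, a log2 difference of 2.78 there, and Dact1 was at 16.5 and 0.65 FPKM in the trunk and at 10.9 and 42.7 FPKM in NotoPs (1.88). Both were lower in the trunk and higher in NotoPs at E9.5. Cyp26a1, at 10.1 and 38.0 FPKM in NotoPs (1.82), had only 5 fragments (6.17 FPKM) and 0 in the trunk, where the counting interval of its ratio held 1. In the other direction, Ephb1 was at 6.29 and 48.8 FPKM in the trunk and at 2.83 and 0.14 FPKM in NotoPs (-1.75). Mcf2l (0 and 11.2 FPKM in the trunk, 24 fragments at E9.5) had a log2 difference of -2.20 in NotoPs, and Cpz, a carboxypeptidase (0 and 24.1 FPKM, 22 fragments), one of -1.85. The values of the pseudogenes Atp6v0c-ps2 (-2.46) and Rpl34-ps1 (6.92) are uncertain because they could share fragments with their parent genes, and Rab26os (2.42) rested on 4 fragments at E8.5 in the trunk and 2 at E9.5 in NotoPs. Over all members, 32 genes higher in the trunk were 3-fold lower in NotoPs and 45 genes lower in the trunk were 3-fold higher there.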

How the results depend on the processing

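No paired analysis was possible because each stage had 1 library in each tissue, and for the same reason no library could be left out. The 712 higher genes became 232 with a pseudocount of 5 FPKM, 142 with 5 FPKM in both libraries, 1429 at 2-fold, 358 at 5-fold and 411 with recovered fragments and a counting interval without 1. The 855 lower genes became 277, 153, 1595, 480 and 444 under the same alternatives, 515 with a minimum of 10 FPKM, 1389 with 1 FPKM or with no minimum, and 532 without genes at 0 in a trunk library. The restrictions to counting intervals and to genes above 0 were chosen after seeing the data. Rescaling the libraries (E9.5 factor 0.980 by the median of ratios, 1.05 by summed FPKM) left both counts within 1.5 times. Counting only 2-fold differences in the same direction gave 15.9% of higher and 12.6% of lower members in NotoPs and 28.9% and 19.1% in MPs, beside 8.18%, 6.89%, 19.2% and 12% of all compared genes. The share of lower members that was lower in NotoPs (49.4%) was 52.8% from 10 FPKM, 44.2% at 5-fold and 55.6% without genes at 0, and that in MPs (38.5%) was 45.1% with a pseudocount of 5 FPKM, 44.3% from 10 FPKM and 42.9% without genes at 0. Peaks within 50 kb were found for 70.9% of higher and 70.7% of lower members, within 1 kb for 5.96% and 5.65%, and with -log10 q of 3 or more for 24.5% and 20.8%, beside 70.4%, 7.17% and 24.0% of all compared genes. The Nodal and left-right median, -1.51, was 0.46 from 10 FPKM and the cilium median, 0.16, was -0.21; of the 120 values of list medians under alternatives, no others changed sign. The Hox 6 to 9 median of 2.12 became 1.33 with a pseudocount of 5 FPKM. Of 480 values of named genes, 235 moved by over 1.5 times and none changed sign. The causes were not tested. Depth limits all of this: 168 higher and 302 lower members had under 10 fragments in their richer library.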

Other observations

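Genes known from endoderm, chosen here after their values were seen, were found on both sides of the comparison. Hhex, a homeobox gene of anterior endoderm, was at 31.0 FPKM in the E8.5 library and 1.34 FPKM in the E9.5 library (25 and 1 fragments, ratio 23.1 of E8.5 over E9.5, 3.79 to 950), and the endodermal GATA factor Gata6 at 14.5 and 0.74 FPKM (21 and 1 fragments, ratio 19.4, 3.13 to 804). Gata4 was at 8.43 FPKM (13 fragments) and 0. All 3 were near 0 in both NotoP libraries. Apob, an apolipoprotein, was at 7.12 and 1.03 FPKM (45 and 6 fragments, ratio 6.94, 2.95 to 19.9), Rbp4, the serum retinol carrier, at 47.3 and 7.67 FPKM, and the endocytic adaptor Dab2 at 68.8 and 22.0 FPKM (119 and 35 fragments, ratio 3.13, 2.14 to 4.73). The ectonucleotidase Enpp1 was at 36.2 and 8.11 FPKM (111 and 23 fragments, ratio 4.46, 2.83 to 7.33), and Clic6 at 19.4 and 1.27 FPKM (33 and 2 fragments, ratio 15.3, 3.90 to 131).

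In the other direction, besides Afp, the secreted liver proteins Itih2 (1.41 and 34.3 FPKM, 2 and 45 fragments, ratio 24.3, 6.35 to 207), Serpina1e (0 and 19 FPKM, 11 fragments) and F7, a coagulation factor (0 and 17.9 FPKM, 14 fragments), were higher at E9.5, as was Sox7 (0 and 10.9 FPKM, 15 fragments), a factor of primitive endoderm and endothelium. Cdh5 and Pecam1, which mark endothelium, were at 0 in both trunk libraries. Ttr, another liver and visceral endoderm product, was at 36.0 and 23.4 FPKM (20 and 12 fragments), within counting error of equal levels. Of the gut endoderm marker list, all 6 compared genes were lower at E9.5, with a median log2 difference of -1.12.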
